A study of Mus musculus with 3 samples.

Results

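The genes that encode potassium, calcium and sodium channels, and the subunits that ride on them, were followed through 3 single-cell RNA-seq libraries of mouse pancreatic islets. Genes were taken by symbol: those starting with Kcn or Cacn, or with Scn and a digit, and holding 20 or more unique molecular identifiers (UMIs, each a captured transcript) over the 3 count tables, with the non-coding Kcnq1ot1 left out. Of 104 such symbols listed, 73 reached the minimum, among 13877 genes of 17226 that did so in the series. The minimum fell in a sparse region: Kcnq1 with 20 UMIs, Kcnd3 with 21 and Cacna1g with 23 were just inside, and Cacng7, Kcnc1 and Kcnh5 with 16 each were just outside. The 73 genes held 39522 UMIs in all, from the 20 of Kcnq1 to the 4665 of Cacna2d1; 20 genes had 500 or more and 29 had under 100. By symbol they were 20 voltage-gated potassium channels, 7 inward rectifiers, 6 2-pore channels, 6 channels opened by intracellular ions and 11 potassium auxiliary genes. The rest were 6 calcium pore subunits, 10 calcium auxiliary subunits, 4 sodium pore subunits and 3 sodium auxiliary subunits. Among the potassium auxiliary genes the symbol rule also took Kcnab3os, by its name an opposite-strand transcript and not a subunit.

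The study inactivated Taf4, a subunit of the general transcription factor TFIID, in the beta cells of adult C57/Bl6 mice by giving tamoxifen to animals with floxed Taf4 and an Ins1::Cre-ERT2 driver, so that recombination depends on the Ins1 promoter and alpha and delta cells should keep the gene. The paper also reports that part of the mutant beta cells turned into Gcg-expressing alpha-like cells. Gcg-expressing cells of the mutants may therefore include recombined ones. The library labelled Wild type (WT) came from 300 islets of 1 mouse, with no time given. The libraries labelled TAF4 KO came from 300 islets pooled from 2 mice each, 1 week and 5 weeks after inactivation. Tamoxifen-treated Taf4+/+ littermates with the driver served as controls elsewhere in the study, and whether the WT mouse carried the driver or received tamoxifen is not given in its label. With 1 library per condition, mouse, library and genotype cannot be told apart, no test between conditions was possible, and every interval below covers counting error only.

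The tables held 12000 barcodes and 19472212 UMIs for WT, 2295 and 23131247 at 1 week, and 11229 and 39408284 at 5 weeks, and pairs of libraries shared 2 to 33 barcodes. The labels give male mice throughout, but the WT library held 891 CPM (UMIs per 1000000 UMIs) of Xist and no UMI of the Y-linked Ddx3y, so it goes against its label, and sex cannot be told apart from genotype here. Taf4 itself had 102, 196 and 160 UMIs in WT, at 1 week and at 5 weeks, but a 3′ tag may lie outside the floxed part and so checks nothing. Cells were gated by the share of their UMIs from a hormone gene: beta by 20% or more from Ins2 with Gcg under 3%, alpha by 15% or more from Gcg with Ins2 under 10%, and delta by 5% or more from Sst. At 1 week the limits were 5%, 8% and 1.5%, in cells of 5000 or more UMIs. The beta gates held 8271, 562 and 5685 cells for WT, 1 week and 5 weeks, the alpha gates 2772, 172 and 3011, and the delta gates 621, 38 and 1443. Median UMIs per beta cell were 1656, 24754.5 and 3868 in the same order, so the 1-week cells were far deeper. The gates matched their names by defining markers in all libraries: Irx2 was highest in alpha gates, Hhex was at 218 to 344 CPM in delta gates against at most 7.33 in beta gates, and Mafa was at 129 to 406 CPM in beta gates. Ucn3 and Slc2a2 nevertheless stood at 134 and 198 CPM in WT beta cells against 7.4 and 2.29 CPM at 5 weeks. The delta gates also held the hormone genes Ppy and Pyy, summing to 61452, 70015 and 60461 CPM in the 3 libraries. Ins2 made up 4.3%, 0.856% and 10.6% of UMIs there, in the order WT, 1 week and 5 weeks. Gcg made up 0.325%, 0.0411% and 2.88%, and 73 of the 5-week delta-gate cells also met the alpha gate. The part of this in the 5-week delta ratios was not tested.

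Beta cells are electrically excitable. Glucose metabolism raises ATP, which closes the ATP-sensitive potassium channel made of the Kcnj11 pore and the Abcc8 subunit, the membrane depolarises, voltage-gated calcium channels open and the calcium that enters drives insulin exocytosis. Voltage- and calcium-activated potassium channels then bring the membrane back, and 2-pore channels pass a steady leak that sets how easily a cell fires. Alpha and delta cells fire as well, with larger contributions of sodium channels, and use overlapping sets of the same genes.

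Kcnk16, a leak potassium channel, Kcnf1, a silent potassium subunit, and Scn3a, a sodium pore, stood lower than WT past 2-fold in beta cells of both mutant libraries, and the regions at their start sites are shown for that reason. RefSeq's GRCm38.p6 table, the build to which the reads were aligned (mm10), held a region of 250 bases before to 50 after a start for 51 of the 73 genes. It had none for Scn3a. Each region is written 5′ to 3′ on the gene's strand, with capitals marking each CANNTG, the E-box core bound by islet factors such as Neurod1.
Kcnk16, chr14:20269220-20269519, minus strand: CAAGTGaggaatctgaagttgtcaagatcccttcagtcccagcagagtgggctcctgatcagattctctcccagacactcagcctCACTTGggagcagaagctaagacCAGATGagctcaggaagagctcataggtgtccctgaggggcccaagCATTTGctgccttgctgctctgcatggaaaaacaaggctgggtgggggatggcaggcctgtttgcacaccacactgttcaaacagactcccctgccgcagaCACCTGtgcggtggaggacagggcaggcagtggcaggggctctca
Kcnf1, chr12:17176839-17177138, minus strand: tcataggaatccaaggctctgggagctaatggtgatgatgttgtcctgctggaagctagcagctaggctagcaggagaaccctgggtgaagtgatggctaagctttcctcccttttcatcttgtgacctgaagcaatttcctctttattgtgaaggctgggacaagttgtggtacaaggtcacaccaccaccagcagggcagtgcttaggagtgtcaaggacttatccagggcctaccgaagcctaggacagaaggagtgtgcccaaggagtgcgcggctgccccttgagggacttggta
The Kcnk16 window held 5 E-box cores and the Kcnf1 window none. Over all channel genes 69.2% of 78 such regions held a core, against 72.3% of 32851 regions in the table. The TATA box TATAAA was in 5.13% of the channel regions and 13.6% of all, TGCTGA, part of the sites of Maf factors, in 17.9% and 19.5%, and the homeodomain core TAATTA in 0 and 5.29%, each counted on both strands. These matches describe letters only.

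Most channel genes were scarce, and a few carried most of the signal. In WT beta cells the median gene stood at 0.748 CPM, 10 of 73 reached 10 CPM, and the 12 highest held 74.1% of all channel UMIs. The same 12-gene share was 66% in WT alpha and 61.4% in WT delta cells, where 20 and 28 genes reached 10 CPM. All levels are CPM of the UMIs summed over a gate and are not divided by gene length, since 3′ counting gives 1 tag per transcript. Insulin transcripts fill much of a beta cell's count. Non-hormone genes, mitochondrial ones included, made up 31.9% of UMIs in WT beta cells, 57.2% at 1 week and 33.7% at 5 weeks. CPM therefore shifts for all genes at once, and each comparison is given beside the median log2 ratio of all genes tested in it.

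In beta cells 5 weeks after inactivation, 45 channel genes had 20 or more UMIs over both libraries. Past 2-fold, 6 were higher than in WT, where 9.4% of all 11874 genes tested were, and 9 were lower, where 5.97% of all genes were. Their median log2 ratio was 0.0048 and that of all genes 0.18. Relative to the latter, 5 were higher and 11 lower past 2-fold, against 6.45% and 7.87% of all genes. At 1 week, 16 of 39 channel genes were higher past 2-fold, against 55% of all 11615 genes, and 3 were lower, against 3.71%. The channel median was 0.84 on the log2 scale, below the 1.11 of all genes, so most genes of either kind stood higher in this library. Relative to that median 4 channel genes were higher and 6 lower past 2-fold, against 9.81% and 13.7% of all genes. From 1 to 5 weeks, 5 of 46 were higher, against 3.67% of all genes, and 22 lower, against 46.4%, or 12 and 4 relative to an all-gene median of -0.94, against 10.7% and 6.85%. The comparisons with WT share the WT library, and those with 1 week share that one.

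**Figure D1:**
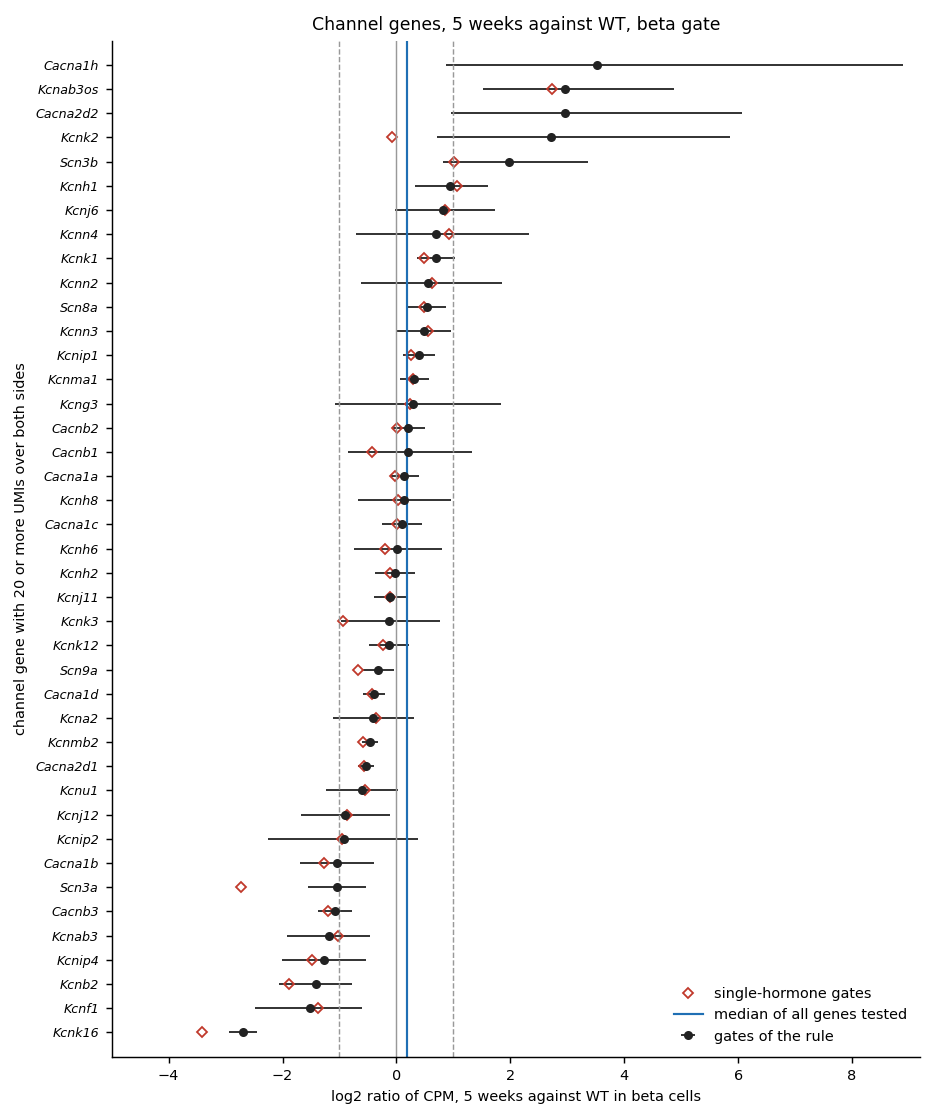
Log2 ratio of CPM at 5 weeks over WT in the beta gate for 41 of the 45 channel genes with 20 or more UMIs over both libraries, ordered by ratio. Black points and bars are the gates of the rule with exact 95% counting intervals, red diamonds are gates without cells that hold a foreign hormone (none drawn where a side is at 0), the blue line is the median of all genes (0.18) and the dashed lines mark 2-fold; Kcnk16 lies farthest to the left, and the diamonds of Kcnk2 and Scn3a lie far from their points.

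**Figure D2:**
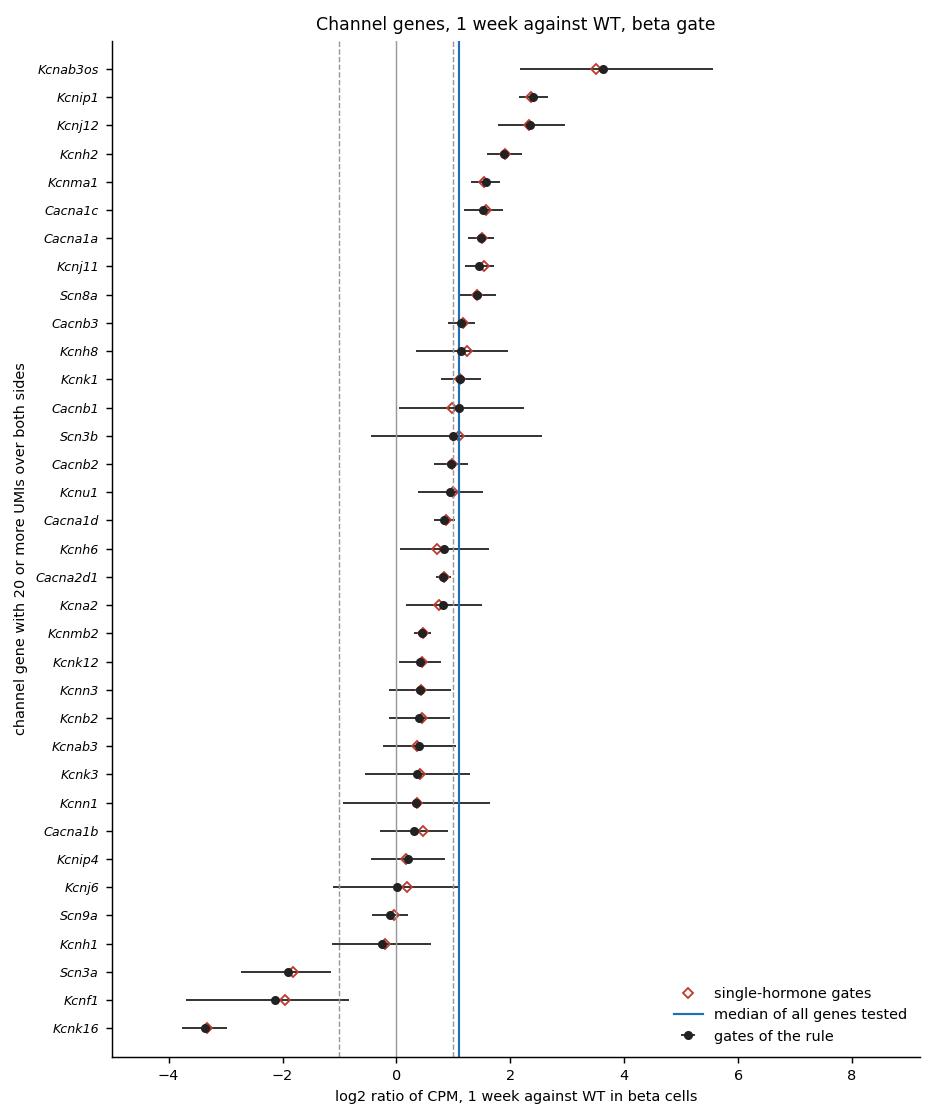
Log2 ratio of CPM at 1 week over WT in the beta gate for 35 of the 39 channel genes with 20 or more UMIs over both libraries, drawn as in the 5-week plot. The blue line, the median of all genes, stands at 1.11, and Kcnk16, Kcnf1 and Scn3a lie apart on the left while 13 genes lie beyond 2-fold on the right.

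Of 5 2-pore leak channels compared in beta cells at 5 weeks, 1 was higher past 2-fold, Kcnk2, and 1 lower, Kcnk16. Of all genes 9.4% were higher and 5.97% lower, and with so few genes per family 1 or 2 calls do not describe a family. Kcnk16 encodes the alkaline-activated TALK channel, one of the most abundant potassium channel transcripts of beta cells (chr14:20261375-20269269). In beta cells it stood at 39.6 CPM in WT (636 UMIs), 3.87 at 1 week (58) and 6.15 at 5 weeks (172). Both mutant libraries were far below WT and their intervals, 2.94 to 5.0 and 5.26 to 7.14 CPM, did not overlap the 36.6 to 42.9 of WT. The log2 ratio was -3.36 (-3.77 to -2.97) at 1 week, 10.3-fold lower, and -2.69 (-2.94 to -2.44) at 5 weeks, 6.45-fold lower. In the alpha gates Kcnk16 stood at 73.4, 40.9 and 59.3 CPM in WT, at 1 week and at 5 weeks, and in the delta gates at 99.8, 112 and 71.7 CPM. Neither gate passed 2-fold at either time, although alpha cells at 1 week stood at -1.47 relative to all genes, with log2 ratios at 5 weeks of -0.31 (-0.57 to -0.037) in alpha and -0.48 (-0.97 to 0.039) in delta cells. In WT beta cells Kcnk16 was the third highest channel gene, and in both mutant libraries it had left the 12 highest of beta cells while it stayed among them in alpha and delta cells.

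Kcnk3, an acid-sensitive leak channel of the TASK family, was highest in alpha cells, at 1.25, 42.4 and 13.6 CPM in WT beta, alpha and delta cells. In alpha cells it stood at 42.4 CPM in WT (100 UMIs), 186 at 1 week (679) and 35.7 at 5 weeks (213), so that the 1-week library was above the others and the 5-week library within 2-fold of WT. The 1-week log2 ratio in alpha cells was 2.13 (1.83 to 2.45), or 1.51 relative to all genes. In beta cells it was at 1.25, 1.6 and 1.14 CPM in WT, at 1 week and at 5 weeks. Kcnk1, a weakly conducting member, was at 6.48, 14.1 and 10.4 CPM in beta cells over the same libraries, with log2 ratios of 1.12 (0.78 to 1.48) at 1 week, 0.019 relative to all genes, and 0.69 (0.36 to 1.02) at 5 weeks. Kcnk12, which gives little or no current by itself, was at 7.04, 9.4 and 6.4 CPM and did not pass 2-fold at either time. Kcnk2, a stretch- and lipid-gated channel, was near 0 in beta cells of WT and 1 week (2 and 3 UMIs) and had 23 UMIs at 5 weeks. Its counts moved with Sst, as described below. Kcnk13 had 1 to 4 UMIs in each beta gate and was not compared.

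**Figure D3:**
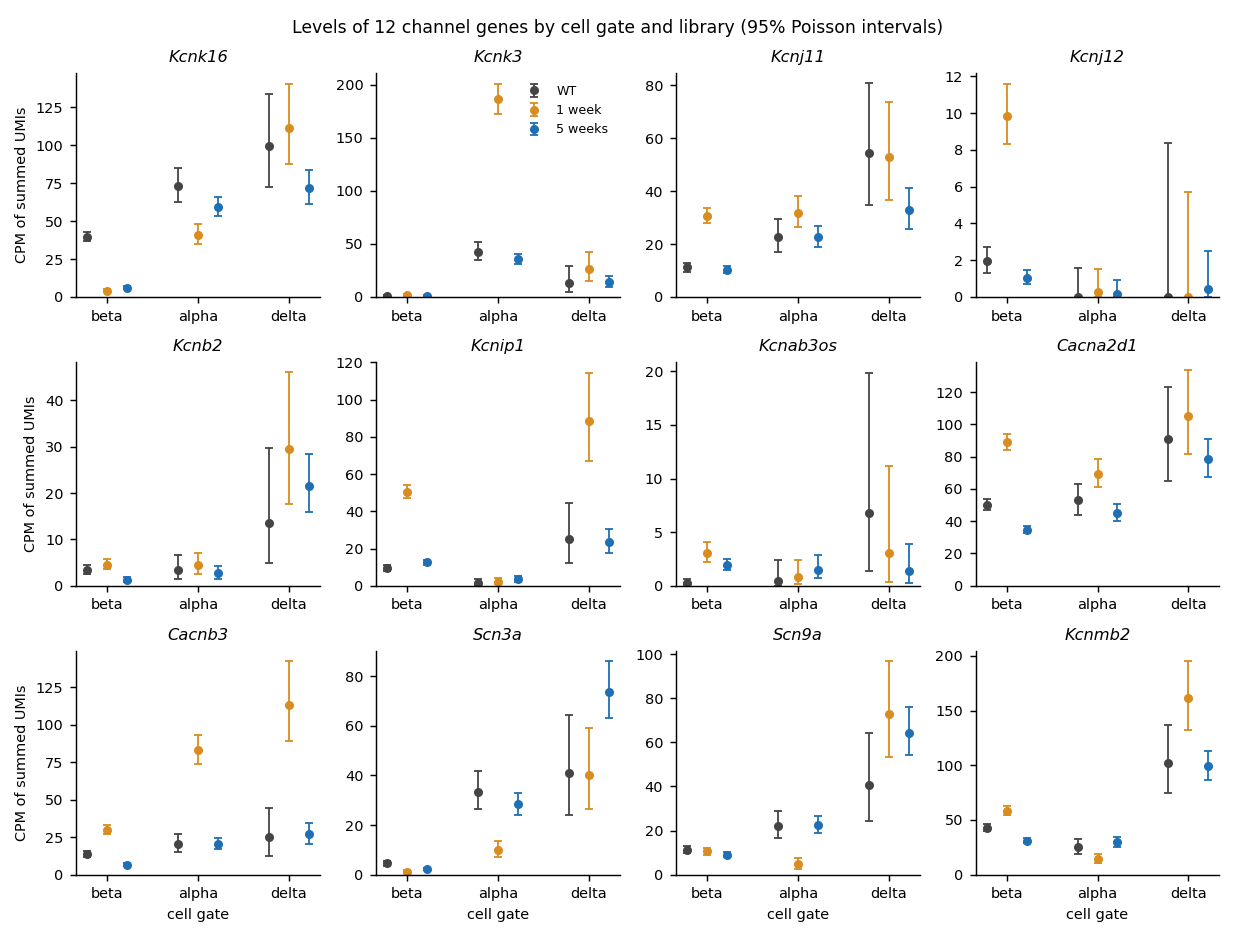
CPM of 12 channel genes in the beta, alpha and delta gates of the 3 libraries, with exact 95% Poisson intervals on each point and linear axes from 0. Kcnk16 is at 3.87 and 6.15 CPM in the beta gates of the mutant libraries against 39.6 in WT, and at 40.9 CPM in the 1-week alpha gate against 73.4 in WT, Kcnk3 is high in the alpha gate of the 1-week library at 186 CPM, and in the beta gate Kcnip1, Kcnj12, Cacnb3 and Kcnmb2 are highest at 1 week.

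None of 3 inward rectifiers compared in beta cells passed 2-fold at 5 weeks, where 9.4% of all genes were higher and 5.97% lower. At 1 week 2 of 3 did, both upward, where 55% of all genes did. These channels pass current most readily into the cell. Kcnj11 forms the pore of the ATP-sensitive channel (chr7:46097123-46100952). It stood in beta cells at 11.2 CPM in WT (179 UMIs), 30.6 at 1 week (459) and 10.3 at 5 weeks (289). The WT and 5-week libraries overlapped in their intervals and 1 week was higher. Its log2 ratio was 1.46 (1.2 to 1.71) at 1 week, 0.35 relative to all genes, and -0.11 (-0.39 to 0.17) at 5 weeks. Abcc8, the sulphonylurea receptor that completes the channel, followed with 121, 241 and 131 CPM over these libraries. Kcnj12, a strong rectifier, was found in beta gates, with 1.93, 9.87 and 1.04 CPM there against at most 1 UMI in any alpha or delta gate. Its log2 ratio was 2.35 (1.79 to 2.96) at 1 week, 1.25 relative to all genes, and -0.90 (-1.68 to -0.12) at 5 weeks, where it stayed within 2-fold. Kcnj6 and Kcnj3, G-protein-gated channels opened by inhibitory receptors, were lower in WT beta than in WT alpha cells at a log2 ratio of -2.94 (-4.0 to -1.88) and -5.43 (-7.83 to -3.67), at 0.997 and 0.187 CPM against 7.63 and 8.06. In alpha cells Kcnj6 had 18, 59 and 56 UMIs in WT, at 1 week and at 5 weeks and a 1-week log2 ratio of 1.08 (0.30 to 1.93). In delta cells Kcnj6 had 2, 5 and 23 UMIs and Kcnj4 1, 17 and 22, and both 5-week ratios past 2-fold had intervals that took in 0, at 1.18 (-0.83 to 4.31) and 2.12 (-0.51 to 7.49). Kcnj2 and Kcnj13 had at most 14 UMIs in any of the gates.

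The voltage-gated potassium channels repolarise the membrane after each spike. Of 11 compared in beta cells at 5 weeks, 1 was higher past 2-fold, and its values are not reported here. Kcnb2 and Kcnf1 were lower past 2-fold, and of all genes 9.4% were higher and 5.97% lower. Kcnb2, a delayed rectifier, was at 3.43 CPM in WT (55 UMIs), 4.53 at 1 week (68) and 1.29 at 5 weeks (36), lower at 5 weeks, at a log2 ratio of -1.41 (-2.06 to -0.78). In beta cells of 1000 to 3000 UMIs the 5-week log2 ratio of Kcnb2 was -0.73, beside an all-gene median of 0.40 in those cells. In delta cells Kcnb2 was at 13.6, 29.5 and 21.5 CPM and did not pass 2-fold at 5 weeks. The silent subunit Kcnf1, which makes no channel alone and joins Kcnb pores (chr12:17172100-17176888), was at 1.75 CPM in WT (28 UMIs), 0.40 at 1 week (6) and 0.608 at 5 weeks (17) and absent or at 1 UMI in every alpha and delta gate. It was lower at a log2 ratio of -2.13 (-3.69 to -0.83) and -1.52 (-2.48 to -0.60), on few UMIs.

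Kcnh2 and Kcnh6, of the ERG family, were at 7.11, 26.4 and 6.97 CPM and 1.5, 2.67 and 1.5 CPM in beta cells of WT, 1 week and 5 weeks. At 5 weeks both lay within 2-fold of WT, at -0.028 (-0.37 to 0.32) and 0.0048 (-0.75 to 0.79), and Kcnh2 was higher at 1 week, at 1.89 (1.59 to 2.21), or 0.79 relative to all genes, which is under 2-fold. Kcnh1, of the EAG family, was at 1.75 CPM in WT (28 UMIs), 1.47 at 1 week (22) and 3.36 at 5 weeks (94). Relative to all genes its log2 ratio to WT was -1.36 at 1 week and 0.77 at 5 weeks. The unadjusted log2 ratio of 5 weeks to 1 week was 1.2 (0.51 to 1.94), beside an all-gene median of -0.94. Kcnh8 was at 1.31, 2.87 and 1.43 CPM and passed 2-fold at 1 week, at a log2 ratio of 1.13 (0.35 to 1.96) that comes to 0.026 relative to all genes. Kcna2, a Shaker channel with 2 to 5 UMIs in each alpha gate and none in delta gates, was at 1.99, 3.53 and 1.5 CPM and within 2-fold of WT at both times. Kcnc4, a fast channel of the Shaw family, had 17, 7 and 12 UMIs in alpha cells, with log2 ratios of -1.91 (-3.42 to -0.57) at 1 week and -1.84 (-3.04 to -0.69) at 5 weeks. Kcnc2, also of the Shaw family, was highest in delta cells, with 12, 23 and 31 UMIs there against 4, 4 and 9 in the far larger beta gates. Kcnq1, a slow delayed rectifier with 5, 2 and 2 UMIs in beta cells, and Kcnd3, an A-type channel with none there, were too scarce to compare.

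None of 5 potassium channels opened by intracellular ions passed 2-fold in beta cells at 5 weeks, where 9.4% of all genes were higher and 5.97% lower. At 1 week 1 of 4 did, Kcnma1, where 55% of all genes were higher. Kcnma1, the large-conductance calcium-activated pore, was at 11.3 CPM in WT (181 UMIs), 33.4 at 1 week (501) and 14.0 at 5 weeks (393) in beta cells, with log2 ratios of 1.57 (1.32 to 1.82) at 1 week, 0.46 relative to all genes, and 0.32 (0.058 to 0.58) at 5 weeks. Kcnn3, a small-conductance channel opened by calcium through calmodulin, was at 3.37, 4.47 and 4.68 CPM, within 2-fold at both times. Kcnu1 was at 2.62, 5.0 and 1.72 CPM and also within 2-fold of WT. Kcnn4 had 6, 4 and 17 UMIs and Kcnn1 11, 13 and 8, and both passed 2-fold between 1 and 5 weeks, at log2 ratios of 1.19 (-0.43 to 3.22) and -1.6 (-3.08 to -0.22). The first of these intervals took in 0. In alpha cells Kcnn3 had 17, 12 and 64 UMIs in WT, at 1 week and at 5 weeks, and its 1-week log2 ratio of -1.13 (-2.33 to 0.021) has an interval that takes in 0.

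Of 6 auxiliary potassium genes compared in beta cells at 5 weeks, Kcnab3os was higher and Kcnip4 and Kcnab3 lower past 2-fold. Kcnab3os is by its name not a subunit, and of all genes 9.4% were higher and 5.97% lower. At 1 week 2 of 5 were higher, where 55% of all genes were. Kcnmb2, which inactivates the large-conductance channel (chr3:31901861-32200180), was second only to Cacna2d1 in WT beta cells, at 42.7 CPM in WT (685 UMIs), 58.5 at 1 week (878) and 31.0 at 5 weeks (866), and its log2 ratios of 0.46 (0.31 to 0.60) and -0.46 (-0.61 to -0.32) both lay below the median of all genes. Kcnip1, a calcium-binding partner of A-type channels (chr11:33629339-33993348), was at 9.54 CPM in WT (153 UMIs), 50.5 at 1 week (757) and 12.5 at 5 weeks (350). It was higher at 1 week, at a log2 ratio of 2.4 (2.15 to 2.66), 2.46-fold beyond the all-gene median, and near WT again at 5 weeks, at 0.39 (0.11 to 0.67). In delta cells it was also highest at 1 week, at 24.9, 88.4 and 23.3 CPM, and alpha cells held 3 to 21 UMIs. Kcnip3, from the same family and also known as the repressor DREAM, had the opposite order of beta and alpha cells, at 0.249, 8.06 and 2.27 CPM in WT beta, alpha and delta cells and at 8.06, 22.8 and 8.71 CPM in alpha cells over the libraries. Kcnip4 was lower in beta cells at 5 weeks, at a log2 ratio of -1.27 (-2.01 to -0.54) with 40, 43 and 29 UMIs over the libraries, and higher in alpha cells at 1 week, at 2.11 (1.09 to 3.31) with 9, 60 and 28. Kcnab3, a beta-subunit of Shaker channels, was at 2.43 CPM in WT (39 UMIs), 3.2 at 1 week (48) and 1.07 at 5 weeks (30) in beta cells, lower at 5 weeks, at -1.18 (-1.92 to -0.46). Kcnab1, of the same family, had 5, 10 and 4 UMIs in beta cells and was not compared.

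Kcnab3os, by its name the opposite-strand transcript of Kcnab3, was at 0.249 CPM in WT (4 UMIs), 3.07 at 1 week (46) and 1.93 at 5 weeks (54) in beta cells. Both mutant libraries were above WT, at a log2 ratio of 3.62 (2.17 to 5.56) and 2.95 (1.51 to 4.88), the highest channel-gene ratio at 1 week. The RefSeq table used here did not list it, and reads at the border of the pair could be credited to either gene. Alpha and delta gates held at most 9 UMIs of it.

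Of 5 calcium pores compared in beta cells at 5 weeks, Cacna1h was higher and Cacna1b lower past 2-fold, against 9.4% and 5.97% of all genes. At 1 week 2 of 4 were higher, where 55% of all genes were. Cacna1d and Cacna1c, the L-type channels that pass most of the calcium for insulin release, and Cacna1a, the P/Q-type channel, were the 3 highest. Cacna1d (chr14:30039941-30491156) was at 23.4 CPM in WT (375 UMIs), 41.9 at 1 week (629) and 17.8 at 5 weeks (498), with a 5-week log2 ratio of -0.39 (-0.59 to -0.20). Cacna1c was at 6.42, 18.5 and 6.86 CPM and Cacna1a at 12.8, 35.9 and 14.2 CPM, with 5-week ratios of 0.10 (-0.26 to 0.46) and 0.14 (-0.11 to 0.39). All lay within 2-fold at 5 weeks, and Cacna1c and Cacna1a passed it at 1 week, at 1.52 and 1.48 beside the 1.11 of all genes. Cacna1b, the N-type channel, was at 2.87 CPM in WT (46 UMIs), 3.53 at 1 week (53) and 1.39 at 5 weeks (39), lower at 5 weeks, at -1.04 (-1.69 to -0.39). Cacna1h, a low-voltage-activated T-type channel, had 1, 2 and 20 UMIs in beta gates and 4, 13 and 29 in the much smaller delta gates. Cacna1g, of the same type, had 11 of its 23 UMIs in 1-week alpha cells.

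Of 5 calcium auxiliary subunits compared in beta cells at 5 weeks, Cacna2d2 was higher and Cacnb3 lower past 2-fold, against 9.4% and 5.97% of all genes. Cacna2d1, which carries pores to the surface (chr5:15934264-16374511), was the highest channel gene of beta cells in all 3 libraries, at 50.3 CPM in WT (807 UMIs), 89.2 at 1 week (1337) and 34.8 at 5 weeks (974). The 5-week interval, 32.7 to 37.1 CPM, lay under that of WT, 46.9 to 53.9, at a log2 ratio of -0.53 (-0.67 to -0.39) that does not reach 2-fold. Cacnb3, a cytoplasmic subunit known in mouse beta cells for its effect on calcium oscillations (chr15:98628436-98644536), was at 13.6 CPM in WT (218 UMIs), 29.9 at 1 week (448) and 6.43 at 5 weeks (180). Its log2 ratio was 1.14 (0.90 to 1.38) at 1 week, where all genes were at 1.11, -1.08 (-1.37 to -0.79) at 5 weeks, and -2.22 (-2.47 to -1.96) between the mutant libraries. In alpha cells it was at 20.4, 82.8 and 20.4 CPM and in delta cells at 24.9, 113 and 26.9 CPM, so 1 week stood above the other libraries in both and 5 weeks did not differ from WT by 2-fold in either. Cacnb2 was at 9.1, 17.6 and 10.5 CPM in beta cells, within 2-fold throughout. Cacng4, of the gamma subunits, was highest in alpha cells, at 0.374, 11.9 and 0 CPM in WT beta, alpha and delta cells, and lower in alpha cells at 1 week, at -1.63 (-2.67 to -0.65), but at 0.69 in cells thinned to 500 UMIs. Cacna2d4 was detected mainly in the 1-week alpha gate, with 2, 35 and 10 UMIs in alpha cells and a 1-week log2 ratio of 3.5 (1.54 to 6.6). Cacnb1 had 12 UMIs in WT beta cells and 24 in each mutant beta gate, and its WT delta level rests on 7 UMIs.

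The sodium pores carry the upstroke of fast spikes. Of 3 compared in beta cells at each time, Scn3a was lower past 2-fold at both. Of all genes 5.97% were lower at 5 weeks and 3.71% at 1 week. Scn3a (chr2:65457118-65567591) was at 4.49 CPM in WT (72 UMIs), 1.2 at 1 week (18) and 2.18 at 5 weeks (61) in beta cells. Its log2 ratio was -1.9 (-2.74 to -1.14) at 1 week and -1.04 (-1.56 to -0.53) at 5 weeks, and the latter was -2.73 once cells with a foreign hormone were left out. In cells of 1000 to 3000 UMIs the 5-week log2 ratio was -0.43, beside an all-gene median of 0.40 in those cells. Alpha cells had 33.5, 9.88 and 28.3 CPM and delta cells 40.8, 40.3 and 73.9 CPM. In alpha cells Scn3a was also lower at 1 week, at -1.76 (-2.37 to -1.18), but not past 2-fold at 5 weeks. Scn9a, the most abundant sodium pore of WT beta cells (chr2:66480080-66635114), was at 11.3, 10.5 and 8.97 CPM there, within 2-fold at both times, although at 1 week it was 2.32-fold under the shift of all genes. In alpha cells it was at 22.1 CPM in WT (52 UMIs), 4.66 at 1 week (17) and 22.4 at 5 weeks (134), lower at 1 week at a log2 ratio of -2.24 (-3.12 to -1.43). Scn8a was at 6.86, 18.3 and 9.94 CPM in beta cells, with log2 ratios of 1.42 at 1 week, 0.31 relative to all genes, and 0.54 (0.21 to 0.87) at 5 weeks. Scn2a had 1 to 6 UMIs in the beta gates.

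Of 2 sodium auxiliary subunits compared in beta cells at 5 weeks, Scn3b was higher past 2-fold, against 9.4% of all genes. The other, whose values are not reported here, was lower past 2-fold, against 5.97%. Scn3b had 7, 13 and 48 UMIs in beta cells and was highest in delta cells of WT, at 0.436, 2.54 and 34.0 CPM in beta, alpha and delta cells. Its 5-week log2 ratio in beta cells was 1.98 (0.82 to 3.36).

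The other channel genes were too scarce for most comparisons. Kcnn2, a small-conductance channel, had 9, 10 and 23 UMIs in beta cells of WT, 1 week and 5 weeks, and Kcng3, a silent subunit, 7, 10 and 15, both within 2-fold of WT at 5 weeks. Kcna5, a Shaker channel, was highest in delta cells, with 8, 13 and 26 UMIs there against 2, 1 and 14 in beta cells, and was within 2-fold of WT in delta cells at both times. Kcnh7, Kcnmb4 and Cacng2 also had a higher CPM in delta than in beta cells in each library that listed them. Kcnh3, Kcnd1, Kcnip2, Kcnmb1, Kcnab2, Cacnb4 and Scn2b had at most 16 UMIs in any gate.

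Part of the 5-week beta result moved with somatostatin. The WT table had been cleared of cells with 2 hormones and of called doublets by the authors, and no such step is stated for the mutant tables. Both the beta and the delta gate were met by 2 cells in WT, 1 at 1 week and 128 at 5 weeks, and Sst made up 0.0261% of UMIs in WT beta cells and 0.297% at 5 weeks. A list of 8 delta markers, of which 7, 6 and 8 were detected, summed to 369, 131 and 3227 CPM in the beta gates of WT, 1 week and 5 weeks. In the whole beta gate the 5-week log2 ratios were 2.72 (0.70 to 5.85) for Kcnk2, 2.95 (0.96 to 6.07) for Cacna2d2 and 3.52 (0.88 to 8.89) for Cacna1h. In the 4746 of 5685 5-week beta cells with Sst under 0.1% of UMIs, Cacna1h had 0 UMIs, Cacna2d2 1, Cacna2d3 1 and Kcnk2 3. The 128 cells with 5% or more held these genes at 12.3, 22.2, 12.3 and 17.3 CPM, near the 5-week delta gate at 13.0, 25.5, 16.1 and 22.8 CPM. Above WT, these genes were therefore seen in beta-gate cells with Sst and not in those with little of it.

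Kcnk16, Scn3a, Kcnmb2 and Cacna2d1 also moved with Sst. From the lowest to the highest of 4 classes of Sst share (under 0.1%, 0.1 to 1%, 1 to 5% and 5% or more, with 4746, 403, 408 and 128 cells), Kcnk16 stood at 3.85, 11.3, 24.2 and 32.1 CPM and Scn3a at 0.508, 3.76, 14.9 and 34.5 CPM. In the same order Kcnmb2 stood at 27.5, 39.0, 55.6 and 78.9 CPM and Cacna2d1 at 32.8, 42.7, 44.6 and 64.1 CPM. In the lowest class Kcnk16 was close to its level in the 1-week library (3.87 CPM). Leaving out cells with 0.3% or more Sst or 0.5% or more Gcg moved the 5-week log2 ratios from -2.69 to -3.41 for Kcnk16, from -1.04 to -2.73 for Scn3a, from 1.98 to 1.0 for Scn3b and from 2.72 to -0.074 for Kcnk2, while Cacna1h had no UMI left. Whether these cells are pairs of cells, carry free RNA or express both hormones was not tested. A list of 10 acinar markers, all detected, summed to 4971, 15.9 and 573 CPM in the beta gates of WT, 1 week and 5 weeks, and its part in the results was not tested.

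**Figure D4:**
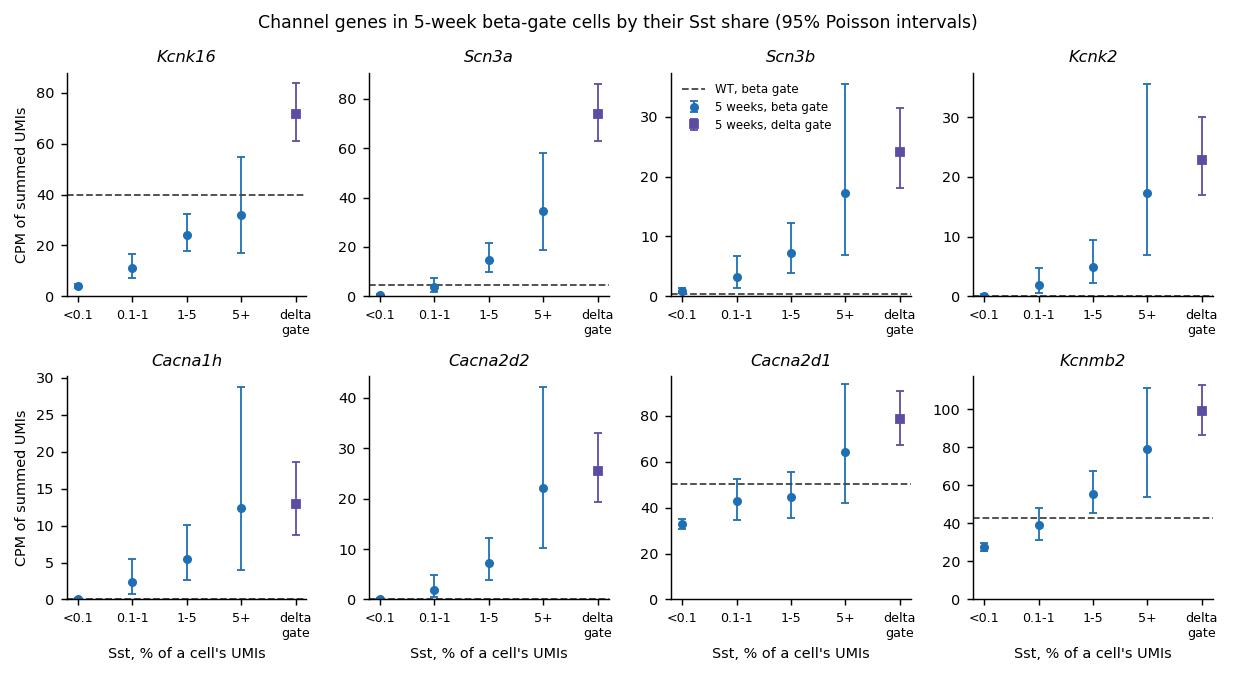
CPM of 8 channel genes in 5-week beta-gate cells grouped by the share of their UMIs from Sst, with the 5-week delta gate on the right (purple squares), the WT beta level as a dashed line and exact 95% Poisson intervals. The last beta class of 128 cells is also part of the delta gate; Kcnk16 is higher in each class with more Sst but under the WT line in all 4, and Cacna1h and Cacna2d2 start at 0 to 1 UMI.

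Within WT, cell types differed in which channels they held. Between beta and alpha cells 38 channel genes were compared, of which 5 were higher in beta past 2-fold, against 5.22% of all 10748 genes, and 16 were higher in alpha, against 26.4%. The all-gene median of this ratio was -0.58, and relative to it 7 were higher in each, against 11.2% and 8.71% of all genes. Kcnip1, Kcnab3, Kcnf1, Kcna2 and Kcnh1 were the 5 genes higher in beta cells, with log2 ratios from 1.04 to 2.91, of which only that of Kcnip1 had an interval clear of 0 (1.33 to 5.2). The leading alpha genes were Kcnj3, Kcnk3, Kcnip3 and Cacng4, at -5.43, -5.09, -5.01 and -4.99. Against delta cells, 0 of 35 were higher in beta cells, where 2.16% of all genes were, and 18 were lower, where 50% of all 10390 were, with an all-gene median of -1.0, relative to which 6 were higher and 10 lower, against 14.7% and 12.2%. Scn3b was the farthest, at -6.28 (-7.82 to -4.9). Between alpha and delta cells 24 were compared: Kcnk3 and Kcnip3 were higher in alpha cells past 2-fold, against 4.41% of all 7408 genes, and Scn3b, Kcnmb2, Kcnj11, Cacnb2 and Cacna1a lower, against 18.5%. Relative to the all-gene median of -0.42, 5 were higher and 2 lower, against 8.84% and 7.18%. Cells of a gate share 1 library, so these ratios compare gates of 1 mouse.

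**Figure D5:**
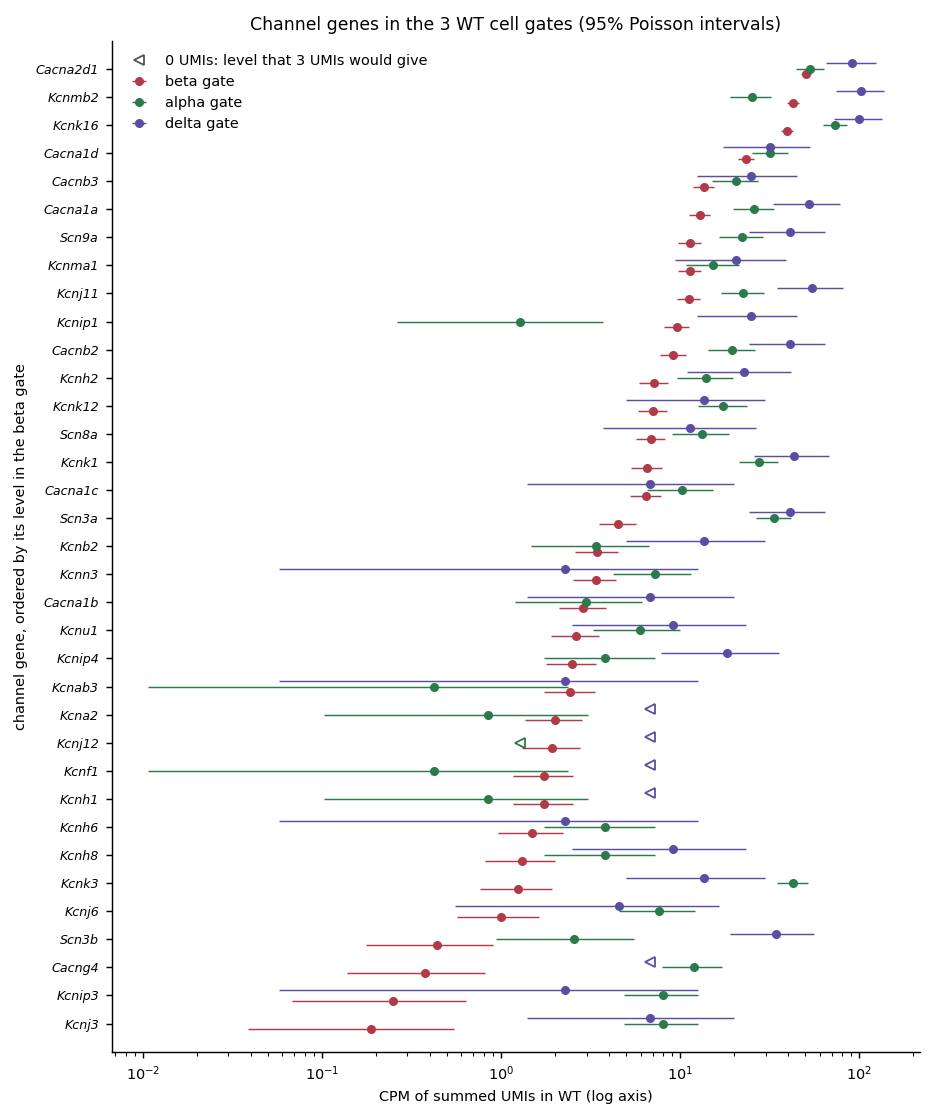
CPM on a log axis of 35 channel genes compared between WT cell gates, ordered by their beta level, with exact 95% Poisson intervals. Open triangles mark gates with 0 UMIs at the level that 3 UMIs would give; Kcnk3, Cacng4, Kcnip3 and Kcnj3 separate alpha from beta cells, Scn3b separates delta from both, and Kcnip1 is low in alpha cells only.

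The driver should not reach alpha and delta cells, but the 5-week alpha gate may hold recombined former beta cells, as said above. In both gates, channel genes passed 2-fold from WT at 5 weeks at shares near those of all genes. In alpha cells 2 of 34 were higher past 2-fold, Scn3b and Kcnip1, against 7.55% of all 10295 genes, and 1 was lower, Kcnc4, against 2.11%. The channel median was -0.017 on the log2 scale beside 0.10 for all genes, relative to which 2 were higher and 1 lower, against 6.22% and 2.88%. Scn3b and Kcnip1 rested on 6 and 3 WT UMIs, with intervals that took in 0, and fell to 0.82 and 0.41 without cells holding Sst. In delta cells 3 of 34 were higher, Kcnj4, Kcnj6 and Cacna1c, against 10.4% of all 8552 genes, and 1 lower, Cacnb1, against 3.57%, each resting on 1 to 7 WT UMIs with an interval that took in 0. Relative to the all-gene median of 0.085, 2 were higher and 2 lower, against 8.88% and 4.5%. At 1 week more differed: in alpha cells 11 of 34 were higher, against 33.4% of all 9866 genes, and 5 lower, against 6.17%, or 5 and 10 relative to an all-gene median of 0.63, against 13.9% and 14.8%. Those 5 lower genes were Scn9a, Kcnc4, Scn3a, Cacng4 and Kcnn3, and Cacna2d4, Kcnk3, Kcnip4 and Cacnb3 were among the higher ones. In the 38 delta cells of 1 week, 6 of 24 were higher, against 27.4% of all 6183 genes, and none was lower, against 3.2%, or 2 and 1 relative to an all-gene median of 0.54, against 11.9% and 8.56%. Cacnb3 led them at 2.18 (1.26 to 3.25).

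Background from other cells was looked for in cells that should lack most islet channel transcripts. In the 202 endothelial-marker cells at 5 weeks Kcnk16 had 0 of 273306 UMIs, which at 3 counts allows up to 11 CPM, and in 124 acinar-marker cells of WT it had 4 UMIs (15.6 CPM), beside Ins2 at 11.9% of their UMIs. The level of Kcnk3 in WT beta cells, 1.25 CPM against 42.4 in alpha cells, cannot be told apart from such background, whereas Kcnj12 and Kcnf1 stood at 0 to 1 UMI in every alpha and delta gate. These cells cannot judge what was left of Kcnk16 in the beta gates of both mutant libraries. The 11 CPM is only the limit for a count of 0, and the 15.6 CPM comes from WT. Of the 124 acinar-marker cells, 34 also met the beta gate, 19 the alpha gate and 7 the delta gate. Whether the Kcnk16 left in the mutant beta gates is background was not tested.

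Beside the channel genes, 52 other genes of excitability were counted, among them pumps, exchangers, TRP channels and genes of calcium stores, and 44 could be compared. At 5 weeks 2 were higher in beta cells, among them Stim1, and 5 lower, Trpm5, Itpr2, Itpr3, Fxyd3 and Gjd2, where 9.4% and 5.97% of all genes were, with a list median of 0.012 beside 0.18 for all genes. Trpm5, a calcium-activated cation channel that depolarises beta cells, was at 148 CPM in WT (2370 UMIs), 6.93 at 1 week (104) and 1.43 at 5 weeks (40). Its log2 ratios were -4.41 (-4.71 to -4.13) at 1 week and -6.69 (-7.18 to -6.24) at 5 weeks, beyond the -3.36 and -2.69 of Kcnk16, and the alpha gates held 15, 0 and 0 UMIs of it. Gjd2, the gap junction protein that couples beta cells, was at 74.3, 47.9 and 30.3 CPM. Stim1, the calcium sensor of the endoplasmic reticulum, was at 11.6, 37.4 and 23.3 CPM, and Fxyd3, a modulator of the sodium pump, at 13.4, 5.67 and 4.0 CPM. The inositol trisphosphate receptors Itpr2 and Itpr3 had 5-week log2 ratios of -1.21 (-1.84 to -0.59) and -1.07 (-1.49 to -0.65). At 1 week 21 were higher, where 55% of all genes were, and 4 lower, Trpm5, Atp2b4, Fxyd3 and Gem, where 3.71% of all genes were, with a list median of 0.95 beside 1.11 for all genes. From 1 to 5 weeks 1 was higher and 19 lower, where 3.67% and 46.4% of all genes were.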

How the data were processed

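Islet cells were dissociated, sorted as live cells and run on the 10X Chromium 3′ platform, 1 library per condition. The submitters' processing notes name bcl2fastq 2.17.1.14, Cell Ranger 3.1, the mm10 build and Seurat 3.1.4. The deposited tables hold raw UMI counts, genes by barcodes. For WT the authors had removed cells with several hormones and doublets called by DoubletFinder and reduced the table to 12000 cells. No such removal is stated for the mutant tables, in which 876 and 994 barcodes at 1 and 5 weeks hold over 1500 genes, the cap stated for the joint analysis of WT and 5 weeks. No doublet caller was run here.

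UMIs were summed per gate and library with Python 3.11.15, numpy 2.4.6, pandas 2.3.3 and scipy 1.17.1, and drawn with matplotlib 3.10.9. Totals counted all genes. Levels carry exact Poisson 95% intervals and ratios exact conditional 95% intervals, which cover counting error only. Ratios were read where both sides together held 20 or more UMIs, and a gene was counted as different past 2-fold. Cell types come from the hormone gates, not from clustering. A level of 0 allows up to 3 counts. In simulated counts for 5 weeks against WT in beta cells, 95.9% of the intervals of unchanged genes held the true value, over 11874 genes. Those counts were drawn as Poisson counts without spread between cells, mice or libraries. Coverage near 95% therefore followed from the setup and checks the calculation only.

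The text names channel genes past 2-fold (up to 25 for 5 weeks against WT in beta cells and 15 elsewhere, by UMIs), the 12 highest in each WT gate and a list known in islet cells, and mentions the others to account for each gene. Values of a few genes are not reported here or drawn, and stay in the counts. Genes, lists and gates were chosen with earlier results of these data known. Alternatives were other totals, gates, depths, filters and minimums. RefSeq coordinates and start-site regions are of GRCm38.p6, and 72 of 73 genes matched by symbol. Sequences of proteins were not used here.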

Additional observations from a re-analysis of the deposited data

How the results depend on the processing

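No paired analysis was possible because each condition had 1 library, and no replicate could be left out. As analysed, the counts of channel genes past 2-fold were 15, 19 and 27 in beta cells (5 weeks against WT, 1 week against WT, 5 weeks against 1 week), 3 and 16 in alpha cells and 4 and 6 in delta cells (5 weeks and 1 week against WT), and 21, 18 and 7 between WT cell types (beta against alpha, beta against delta, alpha against delta). Without hormone and mitochondrial UMIs in the totals, 9 genes passed in beta cells at 1 week, 16 between the mutant libraries and 11 for beta against delta. With the mean of cells' CPM, 7 passed in delta cells at 5 weeks. With cells thinned to 500 UMIs, which leaves fewer UMIs, 3 and 12 passed in beta cells at 5 and 1 weeks, 8 between the mutant libraries, 1 in alpha and 2 in delta cells at 5 weeks, 0 in delta cells at 1 week and 10 for beta against alpha. In cells of 1000 to 3000 UMIs 5 passed in beta and 8 in delta cells at 5 weeks and 13 for beta against alpha. In alpha cells at 5 weeks 1 passed with stricter gates, without cells in several gates and with gates free of foreign hormones.

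With a minimum of 50 UMIs, 0 passed in alpha and in delta cells at 5 weeks, 10 and 2 at 1 week and 11 for beta against alpha. With 1 UMI on each side as the only demand, 28 passed in beta, 13 in alpha and 12 in delta cells at 5 weeks, 26 in alpha and 20 in delta cells at 1 week, and 38, 43 and 27 between WT cell types. These and the preceding alternative counts are not set beside a share of all genes, so they say nothing particular to channel genes. Relative to the median of all genes, 10 passed in beta and 3 in delta cells at 1 week and 16 between the mutant libraries. The gates free of foreign hormones and the ratio to the median were chosen after seeing the data. Over 128 gene ratios and 964 alternative values, 806 stayed within the error, 156 moved further, 167 fell under 2-fold and 2 changed sign: Cacng4 in alpha cells at 1 week, at 0.69 in thinned cells, and Cacnb1 in beta cells at 1 week, at -0.01 relative to all genes. Kcnk16 in beta cells stayed past 2-fold below WT in every alternative that gave a value. For the other changes the cause was not tested.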
